A study of Mus musculus with 82 samples.

Results

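The genes described here encode voltage-gated and other potassium channel subunits, voltage-gated sodium and calcium channel subunits, and the ionotropic and metabotropic glutamate receptors. They were chosen by symbol alone (beginning with Kcn, with Scn and a digit, with Cacna, Cacnb or Cacng, with Gria, Grik or Grin and a digit, or with Grm and a digit), and 6 antisense RNAs that share such a symbol were left out, which gave 158 of the 55376 genes in the count tables. They comprise 40 voltage-gated potassium channel genes, 15 inward rectifiers, 14 two-pore potassium channels, 8 calcium- or sodium-activated potassium channels, 17 auxiliary potassium channel subunits, 10 sodium channel alpha subunits with 4 beta subunits, 10 calcium channel alpha-1 subunits with 16 auxiliary subunits, 16 ionotropic and 8 metabotropic glutamate receptor genes. As a class they are long: the median span from start to end was 53.5 kb, beside 17.5 kb over 21782 coding genes.

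Hematopoietic stem cells (HSCs) of young (YHSC, 3 to 4 months) and old (OHSC, 24 to 26 months) C57BL/6J male mice were sorted from bone marrow as Lin-Sca1+cKit+ cells that were CD34-, Flk2- and CD150+. They were profiled by mRNA-seq (4 YHSC and 8 OHSC libraries), ATAC-seq (4 and 4, with 4 further old columns that no listed sample could be tied to not used here) and H3K27ac ChIP-seq (2 and 2), and YHSC H3K4me3 and H3K27me3 ChIP-seq gave 2 libraries each. Each old mRNA-seq library came from 1 mouse, whereas young mice were pooled, so the spread among YHSC libraries is one between pools. In a second set, old HSCs were transduced with a lentivirus carrying a control shRNA, shRNA1 or shRNA2, both of which target the shorter variant of Btaf1, a gene for an ATPase that removes TBP from DNA. These cells were profiled either after a few days of culture or, as GFP+ donor HSCs, after growth in lethally irradiated young female B6.SJL-Ptprca Pepcb/BoyJ recipients of which several were pooled, with 2 libraries per shRNA in each setting. The donor HSCs were sorted from recipients through another gate, with CD48- in place of CD34- and Flk2-. In the last set, common myeloid progenitors (CMP), granulocyte-macrophage progenitors (GMP) and megakaryocyte-erythroid progenitors (MEP) of young mice gave 2 mRNA-seq libraries each, and the labels give the shRNA and progenitor samples the genotype WT. The 3 sets were sequenced apart, so levels are set side by side between sets without a test.

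Counted reads per library were 20475764 to 24654742 for HSC mRNA-seq, 37292602 to 42737054 for the shRNA libraries, 33177394 to 36510850 for the progenitors and 15427933 to 26260337 for ATAC-seq. Summed HSC marker levels (Procr, Slamf1, Mecom and 5 others) were 4714 to 4778 reads scaled to library size (CPM) in YHSC and 4290 to 4740 CPM in OHSC. B cell markers summed to 88.7 to 157.9 CPM in YHSC and 37.9 to 46.3 CPM in OHSC with 6 of 10 called lower in OHSC, and T and NK cell markers summed to 13.9 to 18.9 and 53.8 to 81.4 CPM with 1 of 2 tested called higher. Megakaryocyte markers had 3 of 7 tested called higher and 1 lower, erythroid markers 2 of 8 higher and 3 lower, and myeloid markers 1 of 7 higher and 1 lower. Of the neuron and glia markers, none of 7 tested was called between ages by edgeR at an adjusted p below 0.05 and a fold change above 1.5. Rbfox3, a neuronal splicing factor, stood at 0.284 to 1.92 CPM in the 12 HSC libraries and at 0 reads in every shRNA and progenitor library. The libraries are bulk, so fewer cells of a type and less RNA per cell cannot be told apart.

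Voltage-gated channels open when the membrane potential shifts and let sodium, calcium or potassium ions through, while two-pore and inward rectifier potassium channels set the resting potential. Ionotropic glutamate receptors are ion channels opened by glutamate, and metabotropic ones are G-protein-coupled receptors. Most of these genes are best known from neurons and muscle, but a few, such as the calcium-activated potassium channel Kcnn4 and the lymphocyte potassium channel Kcna3, are known for setting calcium entry in blood cells. Promoters of developmental and neuronal genes are often held in stem cells under both H3K4me3, a mark of active starts, and H3K27me3, the mark laid down by the Polycomb complex PRC2, a state called bivalent.

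Most of these promoters carried H3K27me3 in YHSC. By the peaks that the deposited tables annotate at a promoter, 104 of 158 genes (65.8%, exact binomial 95% interval 57.9 to 73.2%) had both H3K4me3 and H3K27me3, 24 (15.2%) had H3K27me3 only, 17 (10.8%) had H3K4me3 only and 13 (8.23%) had neither. Among the 21624 other coding genes the shares were 16.6% (interval 16.1 to 17.1%) with both marks, 13.2% with H3K27me3 only, 46.8% with H3K4me3 only and 23.5% with neither. Counting only promoters where both signals were above the median promoter peak of their mark left 0 of the 158 genes and 246 (1.14%) of the other coding genes. H3K27me3 above its median lay at 112 (70.9%) of the 158 genes and 17.3% of the other coding genes. H3K4me3 above its median lay at 8 (5.06%) and 35.7%. By the presence of a peak, H3K27me3 lay at the promoter of 81.0% of the channel and receptor genes and of 29.8% of the other coding genes. The intervals cover counting error over genes and not the spread between animals.

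Both marks were frequent in every family. They were present at 30 of 40 voltage-gated potassium channel genes, 8 of 10 calcium channel alpha-1 subunits, 10 of 16 ionotropic and 5 of 8 metabotropic glutamate receptors, and lowest among sodium channel alpha subunits with 4 of 10. The other 3 metabotropic receptors had H3K27me3 only, so that all 8 carried the Polycomb mark. The peaks were broad in H3K27me3 and weak in H3K4me3: the median length of an H3K27me3 promoter peak was 49.0 kb (25 kb over the promoter peaks of all genes) with a signal of 0.836 (0.617 over all), and the median H3K4me3 signal was 7.47 (17.5 over all). These signals are in units of libraries normalized to a fixed number of reads.

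**Figure D1:**
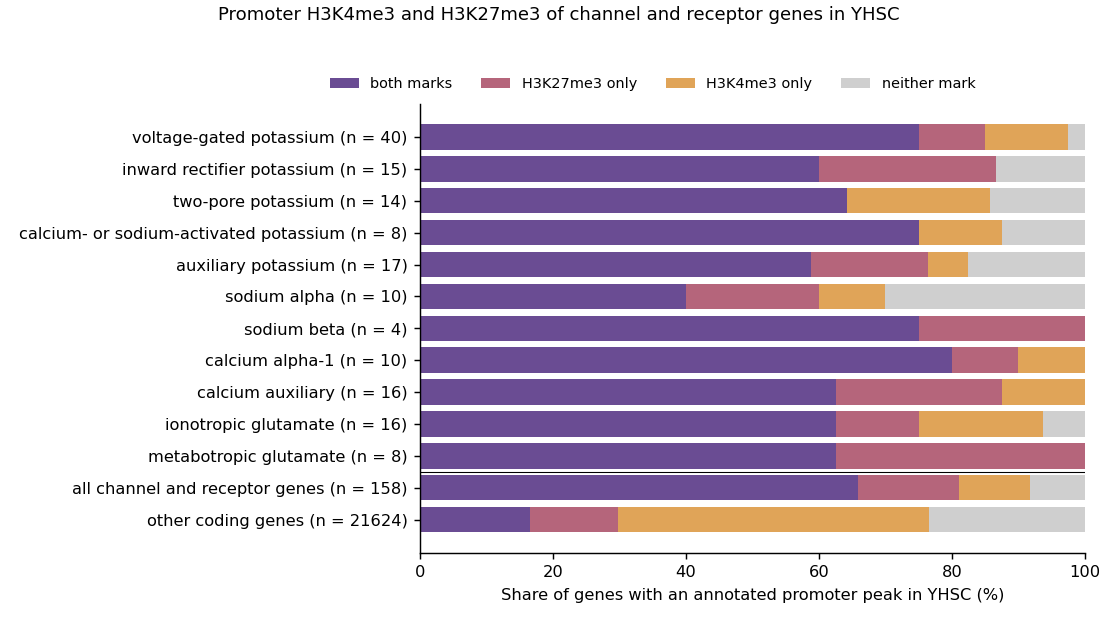
Share of genes (x axis, %) of each channel and receptor family whose promoter had an annotated peak of both marks, of H3K27me3 only, of H3K4me3 only or of neither in YHSC; n is the number of genes. The bar of all 158 genes has 65.8% with both marks, that of the 21624 other coding genes 16.6%.

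The 5 promoters with the most H3K27me3 belonged to Kcnk4, Grin3b, Grin1, Grin2c and Kcnn1, all with both marks. Kcnk4, a mechanically gated two-pore potassium channel, had 2.84 and 2.97 in the 2 YHSC libraries over a peak of 15 kb. Grin1, the obligate subunit of NMDA-type glutamate receptors, had 2.21 and 2.27 over 42.0 kb. Grin3b and Grin2c, 2 further NMDA receptor subunits, had 2.30 ± 0.0907 (SD, n = 2) and 2.15 ± 0.0107, and Kcnn1, a small-conductance calcium-activated potassium channel, had 2.10 ± 0.0656. All 5 stood above the median of 0.836 in both libraries.

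The promoters (250 bases before and 50 after the RefSeq start, GRCm38.p6, minus strand for Kcnk4 at chr19:6934466-6934765 and Grin1 at chr2:25319138-25319437, plus strand for Kcnn4 at chr7:24370013-24370312) are shown because they set the most heavily marked genes beside the gene with the most reads, which carried H3K4me3 only. Capitals mark CG dinucleotides, of which there are 5 in Kcnk4, 33 in Grin1 and 6 in Kcnn4. At least 5 were found in 62.0% of the 32851 promoters in the table, at least 33 in 8.56% and at least 6 in 56.4%, so the heavily marked promoters of Kcnk4 and Grin1 differed widely in CG number.
Kcnk4: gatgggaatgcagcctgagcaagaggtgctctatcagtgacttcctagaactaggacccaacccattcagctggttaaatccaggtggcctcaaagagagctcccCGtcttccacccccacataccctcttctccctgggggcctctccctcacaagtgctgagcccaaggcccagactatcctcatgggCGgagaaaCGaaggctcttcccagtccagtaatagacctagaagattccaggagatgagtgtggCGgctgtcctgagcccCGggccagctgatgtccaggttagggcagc
Grin1: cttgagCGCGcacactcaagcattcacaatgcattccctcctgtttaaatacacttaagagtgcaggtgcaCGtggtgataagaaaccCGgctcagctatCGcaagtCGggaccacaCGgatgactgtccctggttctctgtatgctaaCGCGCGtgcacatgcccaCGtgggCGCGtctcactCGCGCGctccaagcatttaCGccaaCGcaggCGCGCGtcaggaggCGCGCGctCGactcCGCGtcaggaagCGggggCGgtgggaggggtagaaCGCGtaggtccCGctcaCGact
Kcnn4: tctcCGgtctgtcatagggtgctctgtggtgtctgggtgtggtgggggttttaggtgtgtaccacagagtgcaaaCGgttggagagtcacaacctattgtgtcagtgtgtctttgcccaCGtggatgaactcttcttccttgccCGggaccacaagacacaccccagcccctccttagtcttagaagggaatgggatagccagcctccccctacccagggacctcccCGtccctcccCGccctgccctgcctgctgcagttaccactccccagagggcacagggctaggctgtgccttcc

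Most members were at low levels in HSCs, and a handful carried most of the reads. Of the 158 genes, 103 reached a mean of 0.5 CPM in YHSC and 93 in OHSC. All 17 genes with H3K4me3 only reached it in YHSC, with a median of 10.5 CPM, whereas 68 of the 104 genes with both marks did so, with a median of 0.742 CPM, and 10 of the 24 with H3K27me3 only, with a median of 0.370 CPM. Levels between genes were compared per kilobase of exon. The highest were Kcnk5, an acid-sensitive two-pore potassium channel (47.4 ± 6.52 CPM per kb in YHSC, SD, n = 4), and Kcnn4 (38.6 ± 1.1). Within 1 SD these 2 did not overlap each other or the genes that followed.

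The next were Kcnab2, a beta subunit of Shaker-type potassium channels (14.6 ± 0.768 CPM per kb), Kcnip3, a calcium-binding channel partner that also acts in the nucleus (9.75 ± 0.571), Kcna3 (8.61 ± 0.850) and Grik5, a kainate receptor subunit (7.96 ± 0.474). Within 1 SD, Kcnip3 overlapped Kcna3, and Kcna3 overlapped Grik5. Cacnb2, a calcium channel beta subunit, stood at 4.19 ± 0.348, Kcns1, a silent potassium channel subunit, at 3.48 ± 0.928, Gria3, an AMPA receptor subunit, at 3.13 ± 0.114 and Kcnk12, a two-pore channel subunit, at 3.00 ± 0.442. Each of these 4 overlapped its neighbour in this order within 1 SD.

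Fewer of the genes were detected in the other sets. They numbered 37 to 39 in cultured shRNA libraries, 44 to 46 in transplanted ones, 36 in CMP, 29 in GMP and 27 in MEP. These numbers depended on the cut. At 1 CPM there were 60 in OHSC and 15 in MEP. With at least 1 read in every library there were 55 in CMP, 44 in GMP and 43 in MEP. The share of all coding genes at 0.5 CPM also moved, from 67.2% in YHSC and 65.5% in OHSC to 57.2 to 58.7% in the shRNA libraries and 54.8, 52.8 and 49.2% in CMP, GMP and MEP, and the number of genes with a read from 48213 and 50119 in the HSC groups to 23394 to 27476 in the others. The labels name a total RNA kit for the HSC and progenitor libraries and a SMART-seq kit for the shRNA libraries, whereas the methods name SMART-Seq kits for young, old and transplanted HSC alike, with different RNA extraction for the transplanted cells. The run, the kit, the extraction, the sort gate and the population cannot be told apart here. All 10 sodium channel alpha subunits reached 0.5 CPM in YHSC and none did in CMP, GMP or MEP. In the shRNA set, also of HSCs, 1 or 2 did in the cultured groups and 2 or 3 in the transplanted groups. Across YHSC, OHSC, CMP, GMP and MEP, 14 genes were detected in all 5 populations and 48 in none.

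Between ages, a few of these genes moved in each direction. Of the 158 genes, 115 passed the filter on low counts, and 9 were called higher in OHSC (4.69% of all 21522 genes tested were) and 8 lower (2.83% of all were). The remaining 43 were not tested. The median log2 fold change of the 115 was -0.15, beside -0.01 over all genes tested. By family, voltage-gated potassium channels had 3 called in each direction of 26 tested, the 10 sodium channel alpha subunits and 8 inward rectifiers had none, and 15 ionotropic glutamate receptors had 1 in each direction. Of the genes with both promoter marks 77 were tested, with 7 higher and 4 lower, of those with H3K4me3 only 2 of 17 were higher (Kcnk6 and Grin2d) and 2 lower (Kcna3 and Gria3), and of those with H3K27me3 only 2 of 13 were lower, Kcnh6 among them. All adjusted p-values are from edgeR's quasi-likelihood test with Benjamini-Hochberg adjustment over all genes tested.

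Kcnb2 rose most. It encodes Kv2.2, a delayed rectifier potassium channel subunit, and its gene is on the plus strand at chr1:15287254-15723750 (mm10). The 4 YHSC libraries had 0.335, 1.07, 0.737 and 1.04 CPM, and the 8 OHSC libraries had a lowest of 8.73, a median of 17.3 and a highest of 25.1 CPM. Every OHSC library was above every YHSC library. The log2 fold change was 4.45 ± 0.37 (SE), with an adjusted p of 2.90e-06 by edgeR.

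Kcnn2, Kcns1 and Kcnk6, which also encode potassium channel subunits, changed less. Kcnn2, a small-conductance calcium-activated channel, went from 0.899 ± 0.254 to 2.17 ± 0.537 CPM (SD, n = 4 and 8), with a log2 fold change of 1.31 ± 0.25. Every OHSC library was above every YHSC library. Kcns1 went from 9.44 ± 2.52 to 16.5 ± 3.81 CPM (0.85 ± 0.20) with overlapping libraries, and Kcnk6, a two-pore channel, from 10.5 ± 0.872 to 16.2 ± 2.31 CPM (0.67 ± 0.11) without overlap.

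Of the remaining higher genes, Kcnip3 had 32.5, 33.2, 36.5 and 36.1 CPM in YHSC and a lowest of 48.0, a median of 56.1 and a highest of 61.5 CPM in OHSC, so the groups did not overlap. Its log2 fold change was 0.74 ± 0.07. Grin2d, an NMDA receptor subunit, rose from 4.73 ± 0.848 to 8.38 ± 1.08 CPM (0.87 ± 0.13). Cacna2d4, an alpha-2/delta subunit of calcium channels, rose from 3.88 ± 0.397 to 6.88 ± 1.18 CPM (0.86 ± 0.14). Cacna1b, the pore subunit of N-type calcium channels, rose from 3.39 ± 1.26 to 5.39 ± 1.08 CPM (0.72 ± 0.19) with overlapping libraries. Cacna1b did not keep its call without YHSC library 1, where the log2 fold change was 0.56.

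Gria3, which had the lowest adjusted p of the genes that fell, Kcnk12 and Kcng2 were all lower in OHSC. Gria3, on the plus strand at chrX:41400854-41678601, had 29.7 to 31.9 CPM in the 4 YHSC libraries and a lowest of 11.1, a median of 12.8 and a highest of 15.7 CPM in OHSC. All YHSC libraries were above all OHSC libraries, the log2 fold change was -1.19 ± 0.09, and the adjusted p was 3.26e-10 by edgeR. Kcnk12 had 7.16, 5.13, 5.66 and 5.68 CPM in YHSC and 1.68, 1.94 and 2.97 CPM as the lowest, median and highest in OHSC, again without overlap. Its log2 fold change was -1.47 ± 0.16.

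Kcng2, a silent subunit that joins Kv2 channels such as that of Kcnb2, fell furthest, from 3.32 ± 0.767 to 0.671 ± 0.222 CPM, a log2 fold change of -2.25 ± 0.25. Its YHSC libraries with the lower B cell marker sums (88.7 and 104.5 CPM) had 4.06 and 3.91 CPM and those with the higher sums (157.9 and 157.8 CPM) had 2.62 and 2.69 CPM. The erythroid markers summed to 1675, 1562, 1619 and 1579 CPM in YHSC libraries 1 to 4 and to 1268 to 1722 CPM in OHSC. Of these markers Klf1, an erythroid transcription factor, stood at 10.1 to 15.8 CPM in YHSC and 2.13 to 4.99 CPM in OHSC, and Car1, a carbonic anhydrase of red cells, at 117.9 to 169.5 and 0.316 to 18.9 CPM. The globins Hba-a1 (2.05 to 3.08 in YHSC and 4.83 to 53.4 CPM in OHSC) and Hbb-bs (1.57 to 4.39 and 10.8 to 95.2 CPM) had the higher range in OHSC. The part of these markers in the level of Kcng2 was not tested. Kcna3 fell from 16.4 ± 1.62 to 9.42 ± 2.01 CPM (-0.76 ± 0.13). The part that other blood cells had in the level of Kcna3, which lymphocytes also express, was not tested.

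Cacna2d1, an alpha-2/delta subunit, fell from 2.30 ± 0.662 to 1.08 ± 0.289 CPM (-1.05 ± 0.24). Kcnab1, a beta subunit of potassium channels, fell from 10.7 ± 0.443 to 6.83 ± 0.998 CPM (-0.61 ± 0.11), and Kcnh6, an Erg-type channel, from 1.09 ± 0.347 to 0.542 ± 0.179 CPM (-0.97 ± 0.33). Of these 3 only Kcnh6 had overlapping libraries. Kcnab1 was near the 1.5-fold threshold, and its log2 fold change was -0.57 without YHSC library 4 or OHSC library 4, -0.56 without OHSC library 6 and -0.58 without OHSC library 8, each short of the call. Kcnh6 lost its call, with an adjusted p of 0.0529 to 0.196 by edgeR, without YHSC library 1 or 3 or OHSC library 1, 3 or 7.

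**Figure D2:**
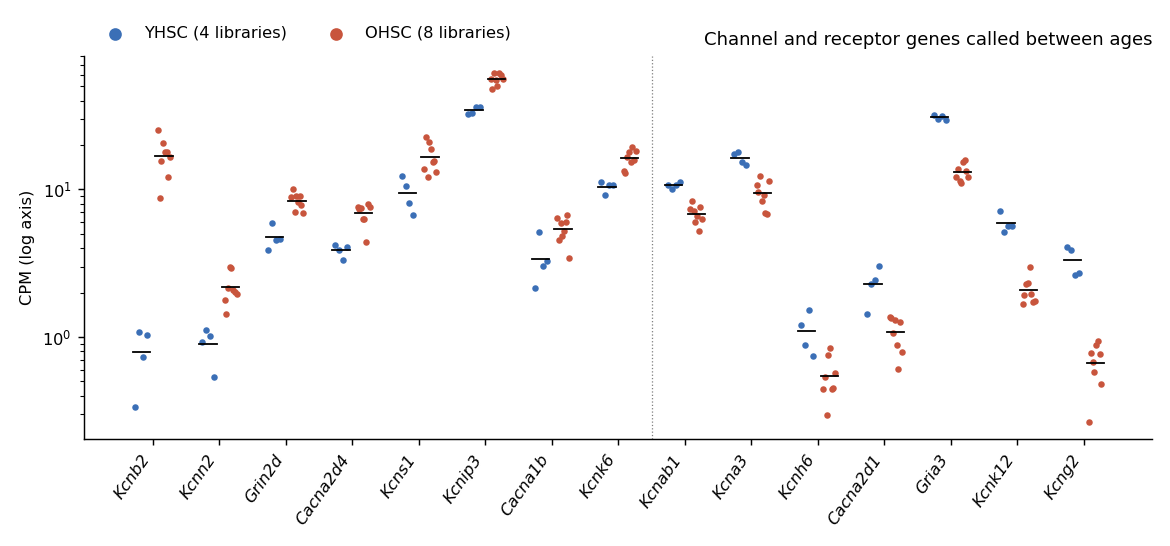
CPM (log axis) of 15 of the 17 genes called between ages, 1 point per mRNA-seq library of YHSC (4) and OHSC (8), with a bar at each mean. Kcnb2 lies between 0.335 and 1.07 CPM in YHSC and between 8.73 and 25.1 CPM in OHSC, and Gria3 lies at 29.7 to 31.9 and 11.1 to 15.7 CPM.

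Other genes of ion transport and glutamate signalling are read beside the 4.69% of all genes called higher and 2.83% called lower between ages. Of 22 tested genes for calcium entry and release outside the families above, 1 was higher in OHSC, Trpc1, a cation channel, which went from 2.28 ± 0.713 to 18.7 ± 2.81 CPM (3.09 ± 0.16). Of 22 tested partners and scaffolds, 3 were higher and 1 lower. The higher ones were Shisa7, a partner of glutamate and GABA receptors (2.19 ± 0.20), and the postsynaptic scaffolds Homer2 (1.28 ± 0.20) and Homer1 (0.73 ± 0.10). Neto2, a kainate receptor partner, fell by 0.60 on the log2 scale. Of 15 tested genes that handle glutamate, the transporter Slc1a1 rose (1.22 ± 0.18) and the neutral amino acid transporter Slc1a4 fell (-0.88 ± 0.19). Of 19 tested chloride and other channels, the proton channel Hvcn1 fell (-0.73 ± 0.09).

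Open chromatin was gained at these genes more often than it was lost. The genes held 1065 ATAC-seq consensus regions in 150 genes, of which 682 were tested, 118 were gained in OHSC (17.3%, beside 10.1% of all 89245 regions tested) and 12 were lost (1.76%, beside 2.9%). Within gene bodies 105 of 562 were gained (18.7%, beside 9.8% of gene body regions of all genes) and 12 were lost (2.14%, beside 3.25%). At promoters 13 of 120 were gained (10.8%, beside 2.82%) and none was lost (beside 2.37%). The median log2 fold change over the 682 was 0.10, beside -0.01 over all regions tested. The gains lay in 47 genes and the losses in 11. Without OHSC library 5, 85 of the regions were called, 74 gained and 11 lost.

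Kcnb2 had 15 of its 16 tested regions gained, and Kcnip4, a further calcium-binding channel partner, 11 of 24. Kcnn2 had 8 of 10, Kcnh8, an Elk-type potassium channel, 6 of 9, Grm7, a presynaptic metabotropic glutamate receptor, 5 of 6, and Kcnt2, a sodium-activated potassium channel, all 5. Of the regions in the 9 genes with higher RNA in OHSC, 26 of 60 were gained, of those in the 8 genes with lower RNA 6 of 64, of those in genes tested and not called 80 of 489, and of those in genes not tested 6 of 71. Of the 26, Kcnb2 and Kcnn2 hold 23. A gain did not go with a called RNA change at Kcnip4 (2.96 ± 0.486 and 2.56 ± 0.808 CPM), Kcnt2 (0.647 ± 0.136 and 0.865 ± 0.327 CPM), Kcnh8 (0.633 ± 0.227 and 0.398 ± 0.174 CPM) or Grm7 (0.343 ± 0.183 and 0.464 ± 0.184 CPM, log2 fold change 0.49 ± 0.46, adjusted p = 0.530 by edgeR), all with overlapping libraries.

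**Figure D3:**
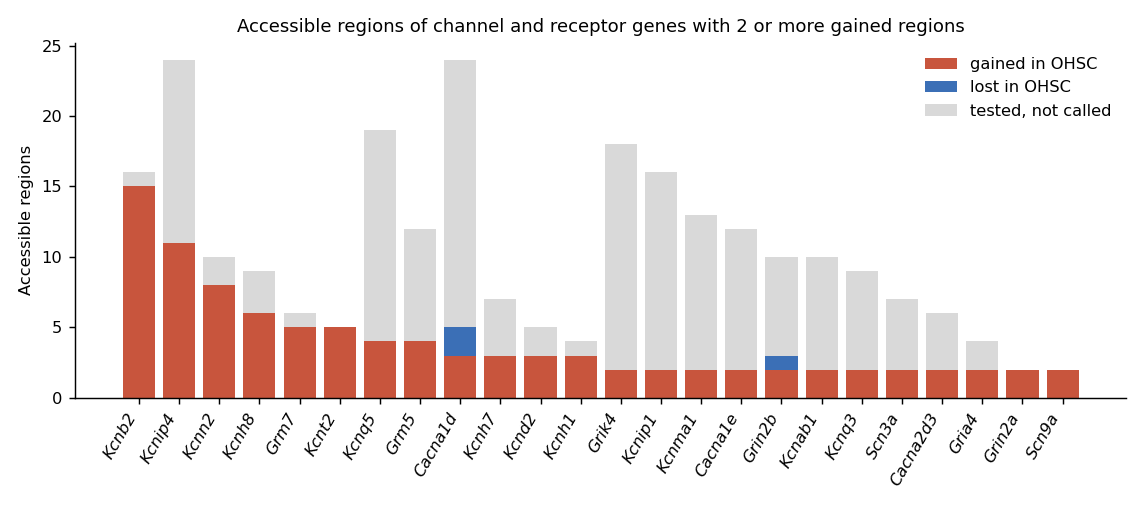
Number of tested ATAC-seq regions (y axis) of 24 channel and receptor genes with 2 or more gained regions, split into gained in OHSC, lost in OHSC and not called. Kcnb2 has 15 gained of 16, Kcnip4 11 of 24 and Kcnt2 5 of 5.

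H3K27me3 covered 331 of the 682 tested regions (48.5%), beside 18.9% of regions of other genes. Of the regions inside an H3K27me3 peak of YHSC 15.4% were gained and of those outside 19.1%. In other genes the shares were 9.12 and 7.96%.

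The gained regions with the largest changes lay inside Cacna2d3, Kcnj6 and Kcnb2. In Cacna2d3, an alpha-2/delta subunit gene, the region chr14:29055313-29055839 had 0.158, 0, 0.115 and 0.190 CPM in YHSC and 1.70, 2.43, 1.67 and 1.76 CPM in OHSC (log2 fold change 3.82 ± 0.39). In Kcnj6, an inward rectifier gated by G proteins, the region chr16:94865121-94865493 went from 0.336 ± 0.0942 to 3.33 ± 0.350 CPM (3.33 ± 0.28, n = 4 and 4). In Kcnb2, the region chr1:15534041-15535008 went from 0.812 ± 0.426 to 7.42 ± 1.18 CPM (3.26 ± 0.21). In each of these the groups did not overlap. These regions stood above the 1.5 CPM of the filter only in OHSC, so they entered the test through the group where they are high. A region inside Kcnn2 came next among the genes (1.76 ± 0.169 to 14.6 ± 2.70 CPM, 3.02 ± 0.15), then Kcnb2 again with chr1:15325095-15325791 (0.582 ± 0.147 to 4.46 ± 0.784 CPM, 2.92 ± 0.24). This last region also passed the filter only through OHSC.

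Losses were smaller. The 5 largest were in Kcnj14, an inward rectifier (2.36 ± 0.417 to 1.27 ± 0.442 CPM, -0.90 ± 0.24), in Cacna1d, an L-type calcium channel (2.74 ± 0.414 to 1.51 ± 0.308, -0.87 ± 0.22), in Cacnb2 (2.26 ± 0.324 to 1.25 ± 0.111, -0.87 ± 0.23), in Kcnj5, an inward rectifier (2.11 ± 0.168 to 1.17 ± 0.0825, -0.86 ± 0.24) and in Grin2b, an NMDA receptor subunit (4.15 ± 0.496 to 2.31 ± 0.954, -0.85 ± 0.20). The Kcnj14 region lost its call without YHSC library 3 (-0.80), OHSC library 5 (-0.77) or OHSC library 8 (-0.76).

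In Kcnb2 the gains ran from the promoter to near the far end. Its promoter region chr1:15286125-15287597 had 9.49, 10.4, 11.0 and 8.42 CPM in YHSC and 28.4, 28.1, 24.1 and 28.7 CPM in OHSC, and the region near its far end, chr1:15678539-15679455, had 3.44, 2.85, 4.34 and 2.51 CPM and 24.9, 27.2, 21.7 and 23.4 CPM. The OHSC libraries stood above the YHSC libraries at both. The log2 fold changes were 1.46 ± 0.09 (adjusted p = 1.48e-20) and 2.86 ± 0.12 (adjusted p = 5.64e-27) by edgeR. The 1 region of the gene that was not called, from 15624256, had 8.81 ± 1.19 and 9.92 ± 0.703 CPM (0.14 ± 0.11, adjusted p = 0.326 by edgeR). In YHSC the promoter carried H3K4me3 (signals 6.15 and 5.47) and lay in an H3K27me3 peak of 58.0 kb (0.719 and 0.700).

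Shown here are the middle 300 bases (mm10, plus strand) of 2 gained regions of Kcnb2 and of the Cacna2d3 region, chosen because these carry the gains described. They are chr1:15534375-15534674 and chr1:15678848-15679147 inside Kcnb2, and chr14:29055427-29055726 inside Cacna2d3. Capitals mark matches to searched motifs: CAGGAAG (ETS), AGATAA (the motif of GATA factors) with CACGTG (the E-box), and AACCACA, the reverse complement of TGTGGTT (RUNX), in this order.
Kcnb2 15534375: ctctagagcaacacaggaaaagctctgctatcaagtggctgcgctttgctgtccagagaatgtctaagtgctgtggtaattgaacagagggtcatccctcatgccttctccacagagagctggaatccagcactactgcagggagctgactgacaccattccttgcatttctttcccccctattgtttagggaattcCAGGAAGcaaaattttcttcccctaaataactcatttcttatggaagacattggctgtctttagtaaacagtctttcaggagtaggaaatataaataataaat
Kcnb2 15678848: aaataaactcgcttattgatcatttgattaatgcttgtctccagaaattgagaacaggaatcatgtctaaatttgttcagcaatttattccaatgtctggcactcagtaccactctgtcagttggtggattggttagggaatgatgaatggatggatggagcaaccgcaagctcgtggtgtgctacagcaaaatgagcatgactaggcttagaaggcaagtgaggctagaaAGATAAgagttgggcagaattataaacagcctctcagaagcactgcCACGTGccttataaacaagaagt
Cacna2d3: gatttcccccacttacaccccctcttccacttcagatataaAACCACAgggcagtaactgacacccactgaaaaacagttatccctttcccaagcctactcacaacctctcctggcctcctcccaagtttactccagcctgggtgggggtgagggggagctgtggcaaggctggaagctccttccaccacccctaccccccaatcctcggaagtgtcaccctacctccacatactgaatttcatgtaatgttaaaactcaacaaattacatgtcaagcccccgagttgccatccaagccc

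Over all such windows, the GATA motif on either strand was in 23.7% of the 118 gained regions of channel and receptor genes, 9.57% of their 564 other tested regions and 14.3% of 89242 tested regions. The RUNX motif was in 12.7, 10.3 and 11.8%, the AP-1 motif (TGANTCA) in 15.3, 9.57 and 11.8%, the ETS motif in 18.6, 19.7 and 21.9%, and the E-box in 5.08, 4.96 and 5.49%. Among the gained regions of all genes and places the GATA motif was in 22.2%, RUNX in 21%, AP-1 in 21.2%, ETS in 25.6% and the E-box in 4.66%. A match is a description of letters and not of binding.

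H3K27ac, a mark of active promoters and enhancers, had 220 peaks in 96 of these genes. By the ratio of the 2 OHSC to the 2 YHSC libraries, with no test, 30 of 158 gene body peaks were higher in OHSC (12.0% of gene body peaks of all genes were) and 4 lower (3.03% of all were), and 8 of 61 promoter peaks were higher (2.71% of all were) and none lower (1.1% of all were). The median log2 ratio of the 220 peaks was 0.21, beside 0.06 over all peaks. The rule also asks for a ratio of at least 1.2 in each pairing of libraries, so leaving out a library loosens it. Without YHSC library 1, 79 peaks passed the rule, 75 higher and 4 lower. Without YHSC library 2, 39 were higher and 19 lower, without OHSC library 1, 45 and 8, and without OHSC library 2, 40 and 7.

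Of the 6 Kcnb2 peaks, 5 were higher in OHSC. The promoter peak had 0.659 and 0.394 in YHSC and 1.68 and 2.02 in OHSC (ratio 3.52), and the peak from 15679168, over the accessible region near the far end, had 0.878 and 0.703 against 2.57 and 3.74 (ratio 3.99). The other 3 had ratios of 3.51 (from 15658223), 3.07 (from 15577240) and 1.73 (from 15624060), the last over the region whose accessibility was not called. The largest ratio was at Kcnh8 (0.365 and 0.449 against 1.44 and 1.99, ratio 4.21). Grm7 had a peak from 111024956 with 0.483 and 0.320 against 1.42 and 1.36 (ratio 3.47). The 4 lower peaks were 2 in Kcnq1, a cardiac and epithelial potassium channel (ratios 0.526 and 0.545), 1 in Cacna1d (0.578) and 1 in Grm4, a metabotropic receptor (0.631). The Kcnq1 peak with the ratio of 0.526 did not pass without YHSC library 2, and the Grm4 peak did not pass without YHSC library 1 or OHSC library 1. With limma, 10 peaks were called higher and 0 lower, and the Kcnb2 peak from 15624060 was not called (adjusted p = 0.104 by limma).

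**Figure D4:**
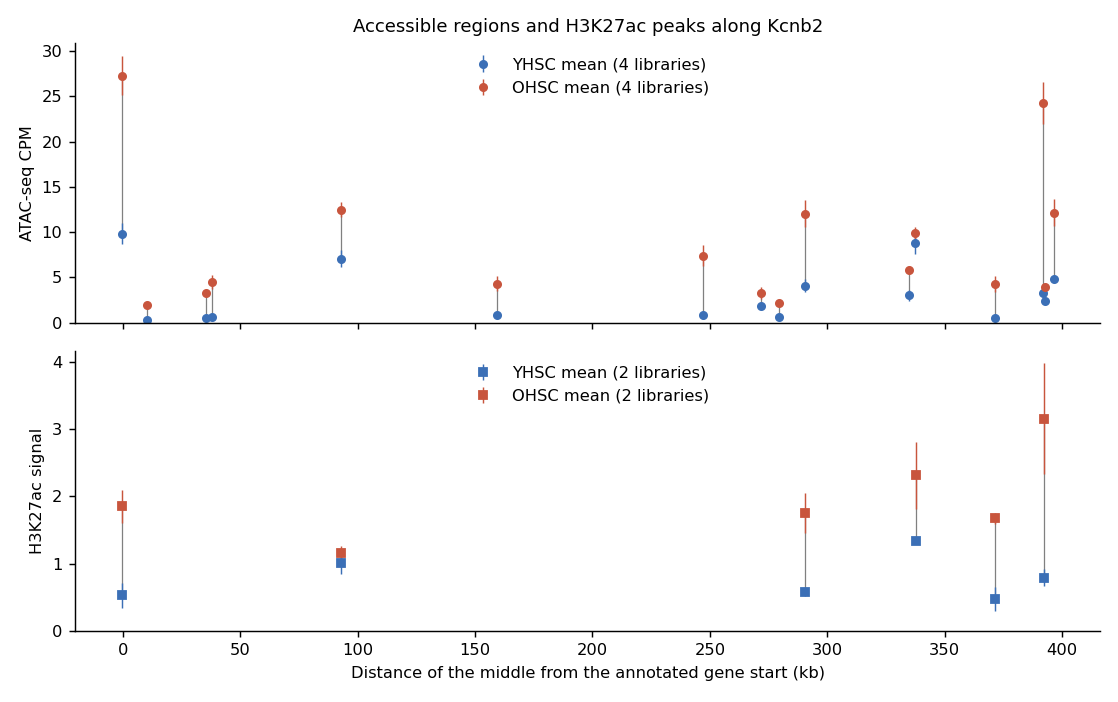
ATAC-seq CPM (upper, 16 tested regions) and H3K27ac signal (lower, 6 peaks) along Kcnb2 by distance in kb from the gene start, as mean and SD of YHSC and OHSC libraries (4 each for ATAC-seq, 2 each for H3K27ac). OHSC means are above YHSC means at every point, with the least difference in accessibility at the region from 15624256 (8.81 and 9.92 CPM).

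Of the 118 gained accessible regions, 14 overlapped an H3K27ac peak higher in OHSC, 13 another H3K27ac peak and 91 none. Of the 552 regions not called, 16 overlapped a higher peak and 385 none. The Cacna1d region that was lost from 30043326 overlapped the lower Cacna1d peak.

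In old HSCs that carried an shRNA against the Btaf1 variant, Gria3 was called higher than in controls in both settings, at an adjusted p below 0.05 by edgeR in culture and not after transplantation. Gene-level Btaf1 counts, which do not separate its variants, were 137.0 to 141.1 CPM in cultured controls and 110.0 to 119.2 CPM in the 4 cultured shRNA libraries (log2 fold change -0.31, adjusted p = 0.00151 by edgeR), and 160.6 to 165.5 and 117.8 to 139.2 CPM after transplantation (-0.37, adjusted p = 0.791). In culture 54 of the 158 genes were tested, and at an unadjusted p below 0.05 with a fold change above 1.5 there were 5 called higher (2.45% of all genes tested were) and 3 lower (0.972% of all were). After transplantation 62 were tested, with 5 higher (1.43% of all) and 1 lower (0.811% of all). The shRNA1 and shRNA2 libraries of a setting share the same 2 controls.

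Gria3 had 5.87 and 8.21 CPM in the cultured controls, 14.9 and 14.7 CPM with shRNA1 and 13.8 and 15.3 CPM with shRNA2. After transplantation it had 9.66 and 9.92 CPM in the controls, 22.9 and 12.9 CPM with shRNA1 and 25.6 and 15.8 CPM with shRNA2. All shRNA libraries were above the controls of their setting. Myeloid markers summed to 837.4 and 655.5 CPM in the transplanted controls, 1126 and 600.1 CPM with shRNA1 and 857.8 and 954.3 CPM with shRNA2. Of these Mpo, a granule enzyme of myeloid cells, had 35.97 and 1.17, 181.7 and 8.48, and 0.656 and 2.72 CPM in the same order, and Elane, another, 13.1 and 0.346, 43.5 and 4.48, and 0.403 and 0.518 CPM. In culture the sums were 386.3 and 394.9 CPM in controls, 362.8 and 360.9 CPM with shRNA1 and 510.2 and 505.6 CPM with shRNA2. Their part in the level of Gria3 was not tested. The log2 fold change was 1.04 ± 0.14 in culture (adjusted p = 0.000465 by edgeR) and 0.97 ± 0.27 after transplantation (adjusted p = 0.852), and the difference between settings was 0.07 ± 0.32 (adjusted p = 0.980 by edgeR).

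Kcnb2 was at far lower levels in these cells than in freshly sorted OHSC, and its differences from control were of opposite sign in the 2 settings. In culture it had 0 and 0.107 CPM in the controls, 0.330 and 0.689 CPM with shRNA1 and 0.583 and 0.293 CPM with shRNA2, a log2 fold change of 3.12 ± 0.92 (adjusted p = 0.0812 by edgeR) that rests on 4 control reads. After transplantation it had 0.736 and 1.36 CPM in the controls, 0.586 and 0.421 CPM with shRNA1 and 0.151 and 0.363 CPM with shRNA2, a log2 fold change of -1.46 ± 0.56 (adjusted p = 0.852). Neither pair of groups overlapped. The transplanted call was lost without control library 2 (-0.95) and with shRNA1 alone (-1.06). The difference between the settings, a test added after the values were seen, was 4.58 ± 1.1 on the log2 scale, with an adjusted p of 0.128 by edgeR.

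Of the other genes called in culture, Cacnb3, a calcium channel beta subunit (0.100 ± 0.00966 to 0.373 ± 0.262 CPM, 1.86 ± 0.85, n = 2 and 4) was higher, and Kcnn1 (0.722 ± 0.193 to 0.183 ± 0.147 CPM, -1.97 ± 0.63), Kcnmb1, a beta subunit of BK channels (0.398 ± 0.0324 to 0.125 ± 0.0859 CPM, -1.68 ± 0.79) and Grin1 (2.31 ± 0.293 to 1.00 ± 0.498 CPM, -1.22 ± 0.36) were lower. None of these 4 had an adjusted p below 0.05 by edgeR. Without control library 2, Kcnn1 (-1.67), Kcnmb1 (-1.75), Grin1 (-1.08) and Cacnb3 (1.95) lost their calls, and 5 members were called in all. Kcnmb1 (-1.58) and Cacnb3 (1.77) also lost them without control library 1, and Kcnmb1 without shRNA1 library 1 (-1.25) or 2 (-1.80) or shRNA2 library 1 (-1.77). Cacnb3 had 6 and 6 reads with shRNA1 and 27 and 22 with shRNA2, and with shRNA1 alone it was not called (0.54). With shRNA2 alone Kcnn1 (-1.36) and Kcnmb1 (-1.22) were not called.

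After transplantation, Kcnu1, a BK-like channel best known from sperm, had 0 reads in both controls and 0.0488, 0.132, 0.303 and 0.570 CPM in the shRNA libraries, at least 7.00-fold higher than the floor of 3 counts over the 2 controls. Kcnj6 (0.357 ± 0.166 to 0.923 ± 0.340 CPM, 1.35 ± 0.52), Cacna2d2, an alpha-2/delta subunit (0.842 ± 0.0501 to 1.75 ± 0.194 CPM, 1.04 ± 0.30) and Kcnd3, a Kv4 channel (2.18 ± 0.374 to 3.59 ± 0.463 CPM, 0.71 ± 0.24) were higher too. No member passed at an adjusted p below 0.05 by edgeR, with an unadjusted p below 0.05 for 6. The call was lost without control library 2 for Kcnj6 (0.95) and Kcnd3 (0.55), without control library 1 for Kcnu1, whose controls had no read in either case, without shRNA2 library 1 for Kcnj6 (1.06), and with shRNA1 alone for Kcnj6 (1.05) and Kcnd3 (0.54).

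Of the other ion transport and glutamate genes, the ATP-gated channel P2rx7 (0.65 ± 0.20), the glutaminase Gls2 (0.76 ± 0.18, adjusted p = 0.0271 by edgeR) and the pacemaker channel Hcn2 (0.94 ± 0.31) were called higher in culture and none lower, of 20, 12 and 17 tested in their lists and 16 partners and scaffolds, beside 2.45% of all genes higher and 0.972% lower. After transplantation Trpm2 (0.87 ± 0.36) and Hvcn1 (0.70 ± 0.21) were called higher and Ryr1 (-0.87 ± 0.26), Shisa9 (-1.20 ± 0.43) and Slc1a4 (-0.63 ± 0.17) lower, of 20, 15, 12 and 17 tested in the 4 lists and beside 1.43% and 0.811% of all genes, none with an adjusted p below 0.852 by edgeR.

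In progenitors, more of the genes were called lower than higher in MEP, against CMP and against GMP. Of the 158 genes, 49 passed the filter over CMP, GMP and MEP. Against CMP, MEP had 9 called higher (17.5% of all 18234 genes tested were) and 27 lower (29.2% of all were), with a median log2 fold change of -1.54 beside -0.07 over all genes. GMP against CMP had 8 higher (6.24% of all) and 12 lower (10.5% of all), and MEP against GMP had 10 higher (16.6% of all) and 21 lower (27.2% of all). The 3 contrasts share libraries, and their values are given side by side. Myeloid markers such as Mpo and Elane summed to 16417 and 19768 CPM in CMP, 56879 and 58113 CPM in GMP and 38.0 and 66.0 CPM in MEP. Erythroid markers summed to 658.2 and 700.2, 228.2 and 254.5, and 12899 and 13468 CPM in the same order. Megakaryocyte markers summed to 657.8 and 666.2 CPM in CMP, 43.3 and 76.7 CPM in GMP and 25.5 and 24.4 CPM in MEP. The myeloid and erythroid lists match the labels, whereas the megakaryocyte list was lowest in the libraries labelled MEP.

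Gria3 was the member with the most reads in GMP and nearly absent from MEP. It had 116.2 and 102.8 CPM in CMP, 168.9 and 147.9 CPM in GMP and 0.0563 and 0.113 CPM in MEP (6 reads). The log2 fold change was -10.16 ± 0.19 for MEP against CMP, 0.75 ± 0.08 for GMP against CMP and -10.91 ± 0.19 for MEP against GMP. Kcnk12 followed the same order, with 42.8 and 43.3 CPM in CMP, 64.3 and 63.1 CPM in GMP and 0.0563 and 0.0566 CPM in MEP (4 reads). In neither gene did any 2 populations overlap.

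Kcnip3, Kcnj2 and Kcnk6 had no read in MEP. Kcnip3 had 18.8 and 22.6 CPM in CMP and 43.5 and 43.0 CPM in GMP, which were at least 489-fold and at least 1022-fold above the floor of 3 counts over the 2 MEP libraries. Kcnj2, an inward rectifier, had 4.42 ± 0.366 CPM in CMP and 11.8 ± 0.750 CPM in GMP (SD, n = 2), at least 104-fold and 279-fold above it. Kcnk6 had 4.79 ± 0.196 and 6.87 ± 1.19 CPM, at least 113-fold and 162-fold above it.

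Another group was highest in CMP. Kcng1, a silent subunit of Kv2 channels, had 42.7 ± 0.221 CPM in CMP, 4.35 ± 1.26 CPM in GMP and 2 reads in MEP. Kcna3 had 67.7 ± 6.87, 18.5 ± 1.25 and 1.38 ± 0.604 CPM, so that all 3 populations were apart (log2 fold change -1.65 ± 0.15 for GMP against CMP and -5.49 ± 0.20 for MEP against CMP). Kcnj5 had 14.4 ± 0.508 CPM in CMP, 0.299 ± 0.344 CPM in GMP and 0.0563 ± 0.0797 CPM in MEP. Kcnc1, a Kv3 channel, had 6.64 ± 1.38 CPM in CMP, 0.151 ± 0.213 CPM in GMP and no read in MEP, and its difference between GMP and CMP had an adjusted p of 0.181 by DESeq2. Cacna2d4 and Kcnh2, an Erg channel, were lower in GMP than in CMP (-3.41 ± 1.05 and -3.28 ± 0.84) and Kcnh7, a further Erg channel, and Kcnk13 higher (1.78 ± 0.36 and 2.24 ± 0.64). With DESeq2 on all libraries Cacna2d4 was not called (-3.46, adjusted p = 0.0678 by DESeq2). The calls of Cacna2d4 and Kcnh2 were lost without CMP library 1 or 2 or GMP library 1, with adjusted p-values of 0.0527 to 0.204 by edgeR and log2 fold changes of -3.77, -2.94 and -2.41 for Cacna2d4 and -3.35, -3.22 and -3.24 for Kcnh2. That of Kcnk13 was lost without CMP library 1 or 2 or GMP library 2, with adjusted p-values of 0.0722 to 0.191 by edgeR and log2 fold changes of 2.39, 2.10 and 1.86.

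The other group was highest in MEP. Kcnn4 had 160.7 and 187.8 CPM in CMP, 87.2 and 98.9 CPM in GMP and 357.1 and 351.9 CPM in MEP, with log2 fold changes of 1.14 ± 0.08 against CMP and 1.83 ± 0.08 against GMP. Kcng2 had 14.3 ± 0.0794, 5.36 ± 0.423 and 45.7 ± 1.82 CPM and Kcnk5 14.3 ± 3.16, 3.25 ± 1.06 and 21.8 ± 5.83 CPM in the same order. Among the 3 progenitors, the calcium channel genes Cacna1g and Cacna1h (T-type) and Cacna1e (R-type) had nearly all of their reads in MEP. Cacna1g and Cacna1h had no read in CMP or GMP and 1.35 ± 0.395 and 1.36 ± 0.164 CPM in MEP, each at least 32.6-fold above the CMP floor and at least 31.0-fold above the GMP floor, and Cacna1e had 0.0561 ± 0.0793, 0.0845 ± 0.120 and 3.60 ± 0.95 CPM. Kcnip2, a channel partner, had 1.13 ± 0.0438 CPM in MEP beside 4 reads in CMP and 2 in GMP. Cacna1c, an L-type channel, had 0.945 ± 0.536 CPM in MEP beside 0.111 ± 0.0802 and 0.0704 ± 0.0996 CPM, a call lost without MEP library 1 against both (2.41 against CMP, 2.81 against GMP) and without CMP library 1 against CMP (2.57).

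**Figure D5:**
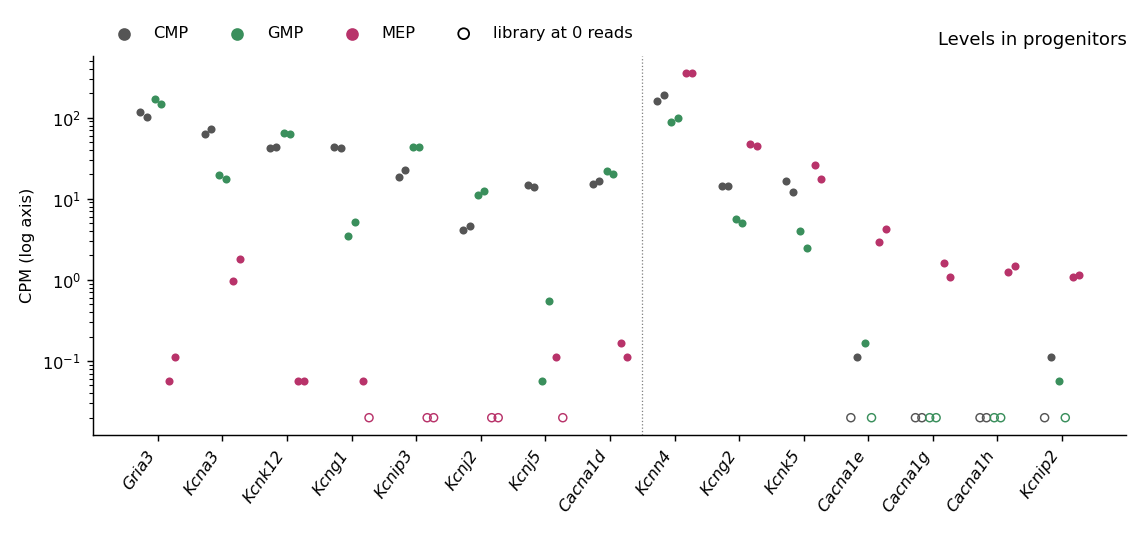
CPM (log axis) in the 2 libraries each of CMP, GMP and MEP for 15 named genes, those higher in CMP or GMP on the left and those higher in MEP on the right; open circles are libraries at 0 reads. Gria3 lies at 103 to 169 CPM in CMP and GMP and at 0.0563 and 0.113 CPM in MEP, and Kcnn4 is highest in MEP at 351.9 and 357.1 CPM.

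Set side by side, without a test between sets, Gria3 stood at 30.8 ± 1.1 CPM in YHSC, 13.1 ± 1.73 CPM in OHSC, 109.5 ± 9.43 CPM in CMP and 158.4 ± 14.8 CPM in GMP. Kcnb2 had no read in CMP, GMP or MEP, beside 0.796 ± 0.342 CPM in YHSC and 16.9 ± 4.99 CPM in OHSC. Kcng2, which was lower in OHSC than in YHSC, had its highest level in MEP, and Kcnk12, also lower in OHSC, in GMP.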

How the data were processed

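The authors trimmed the mRNA-seq reads, mapped them to mm10 (STAR) and deposited raw counts per gene of GENCODE M22 (featureCounts), without stated strand or multimapping settings in what was read here. ATAC-seq reads (BWA, duplicates and blacklisted places removed) were deposited as counts over consensus regions of MACS peaks. ChIP-seq peaks were deposited with a signal per library that the authors scaled to a fixed number of reads. The methods mention bins of 1 kb over the genome, and how a peak's value was taken from them was not worked out here. CPM divides a count by the counted reads of its library, scaled to a common total. The deposited tables also hold the authors' fold changes, which were not used, and 8 per-sample columns that no listed sample could be tied to (4 of old ATAC-seq, 4 of old H3K4me3 and H3K27me3) were not used. Spike-in rows (92) were left out of the HSC tables.

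Counts were tested with edgeR 4.0.16 (robust quasi-likelihood, TMM scaling, R 4.3.3) after filterByExpr for genes and a minimum of more than 1.5 CPM in at least 4 libraries for ATAC-seq regions, and adjusted by Benjamini-Hochberg over all features tested. A call needed a fold change above 1.5 with an adjusted p below 0.05 for age and progenitors, an unadjusted p below 0.05 for the shRNA sets, and an adjusted p below 0.01 for ATAC-seq. A region was placed at a promoter within 1000 bp upstream to 100 bp downstream of a start (GENCODE M21). H3K27ac calls needed a ratio of means above 1.5 and at least 1.2 in each pairing of libraries, or the inverse. Folds against a group without reads were set against a floor of 3 counts over the group. Named were all members called between ages, the 5 with the largest log2 fold changes in each direction of the other RNA comparisons, the 10 with the highest CPM per kilobase in YHSC, the 5 largest called changes in each direction of regions and peaks, the 5 highest H3K27me3 promoter signals, and Grm7. Further members named in the progenitors, the shRNA libraries and the chromatin results were chosen after their values were seen. A few items that these rules name are not reported here. Alternatives used DESeq2 1.42.0, limma 3.58.1, other filters and thresholds, a replicate block and leaving out each library. The fits were tested on simulated data. Replicates are separate samples by their labels, and where separate cultures or animals are not stated p-values measure only the spread between these samples. Intervals and floors cover counting error only. The members and lists were chosen with earlier results of these data known.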

Additional observations from a re-analysis of the deposited data

Results flagged for a closer look

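Of 62 groups of libraries checked for a library apart from the others, 3 had one, and chance gives about 1 in 20. Cacna2d4 was lowest in an OHSC library with 4.38 CPM (OHSC median 7.41 CPM). Kcnk5 was highest in an OHSC library with 161.3 CPM. The Cacna2d3 region from 29055313 was highest in an OHSC library with 2.43 CPM, beside 1.70, 1.67 and 1.76 CPM.

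The shRNA difference of Kcnb2 was 4.58 higher on the log2 scale in culture than after transplantation. The groups did not overlap in either setting and the difference had opposite signs, but it did not pass the adjustment over all genes (adjusted p = 0.128, edgeR interaction test chosen after the values were seen).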

How the results depend on the processing

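No gene, region or H3K27ac peak named reversed under an alternative. Leaving out 1 library at a time gave 16 to 18 genes between ages (17 in all libraries), 5 to 10 in culture (8), 4 to 7 after transplantation (6), 30 to 38 for MEP against CMP (36), 14 to 20 for GMP against CMP (20), 29 to 35 for MEP against GMP (31), 85 to 127 accessible regions (130) and 47 to 79 H3K27ac peaks (42). Without an OHSC library the ATAC-seq filter still asked for 4 libraries, so regions that had passed it only in OHSC left the test. Without an H3K27ac library fewer pairings had to pass, so that rule was looser. A fold change above 2 left 7 genes between ages and 76 regions, and a ratio above 2 left 18 H3K27ac peaks. In culture 14 genes were called without a filter and 1 at an adjusted p below 0.05, and after transplantation 10 with shRNA2 alone and 0 at an adjusted p below 0.05 by edgeR (6 at an unadjusted p below 0.05). Promoter regions alone gave 13. H3K27ac calls were 24 with 0.5 added to each signal, 10 with limma (2.04% of all peaks were called higher) and 20 with limma and the replicate block (4.91%), with 0 lower in both. The promoter comparison turned with the rule, from both marks on 65.8% of the 158 genes and 16.6% of other coding genes by presence of a peak to 0 and 1.14% with both signals above the median promoter peak.

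Replicate numbers did not pair the samples, with correlations of same-numbered deviations from -0.22 to 0.12. With the replicate block, 13 genes were called between ages, 7 in culture, 6 after transplantation, 36 for MEP against CMP, 19 for GMP against CMP and 31 for MEP against GMP. Of the 13 between ages, 12 were among the 17 of the main fit. The calls of Cacna2d1 (log2 fold change -0.78), Kcnab1 (-0.53), Kcnh6 (-1.05), Kcnk6 (0.57) and Kcns1 (0.90) were lost with the block. The shRNA and progenitor groups have 2 libraries each, and Kcnb2 had 4 reads in the cultured controls. The cause of these differences was not tested.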
